A study of Mus musculus with 1104 samples.

Results

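The core circadian clock of mouse cells was followed through 10 genes chosen by name: Arntl, Clock, Npas2, Per1, Per2, Per3, Cry1, Cry2, Nr1d1 and Nr1d2. They are 10 of 20646 gene rows in one table of RNA-seq read counts from 13 organs. The series asked how gene expression in many organs changes while mice become obese on a high-fat diet. Male wild-type C57BL/6 mice received a diet with 60 kcal% fat (D12492) from 8 weeks of age until they were dissected, under 12 hours of light starting at 7:00, with no more than 6 animals in a cage. Libraries came from 14 time points between 0 days and 12 weeks, and for epididymal white adipose tissue also from 16 and 20 weeks, with 6 mice per time point. That gave 184 groups of 6 libraries, 84 libraries per organ and 96 for epididymal fat. Beyond the groups of 0 days, no mice without the diet enter this work, and the hour of dissection is not given in the sources used here. Time on the diet, age and the day of dissection therefore cannot be told apart. Bulk RNA also cannot separate fewer cells of a type from less RNA per cell.

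The clock is a loop of transcription and repression. Arntl (the protein BMAL1) pairs with Clock or its relative Npas2 and switches on the Per and Cry genes, whose proteins return to the nucleus and block that pair. Nr1d1 and Nr1d2 (REV-ERB alpha and beta) are switched on by the same pair and repress Arntl, which makes a second loop. In mouse tissues under a light-dark cycle, Arntl and Npas2 RNA are known to be high around the start of the light phase. Nr1d1 RNA peaks within the light phase, and Per1 and Per2 RNA peak near its end. The level of these genes in any sample therefore depends on the hour at which the tissue was taken.

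The promoters of these genes were searched for letters that clock factors are known to bind. RefSeq windows (build GRCm38.p6, 250 bases before and 50 after a start site) were found for 9 of the 10 genes, 13 windows in all. They were searched on both strands for the E-box CACGTG, the related box CACGTT, read on its opposite strand as AACGTG, the ROR element TAGGTCA or TGGGTCA, which REV-ERB proteins also bind, the D-box TTATGTAA or TTACGTAA, and the cAMP element TGACGTCA. Among 32817 windows of the same length, 7.15% held the E-box, 4.69% CACGTT, 6.46% a ROR element, 1.05% a D-box and 1.79% a cAMP element. The windows of the 4 genes to which most of the results below refer and which held a match are printed 5′ to 3′, with the match in capitals. They are Arntl (chr7:113207261-113207560, plus strand, ROR element), Nr1d1 (chr11:98775328-98775627, minus strand, AACGTG), Per1 (chr11:69098699-69098998, plus strand, E-box) and Per3 (chr4:151044616-151044915, minus strand, D-box found 2 times).
Arntl: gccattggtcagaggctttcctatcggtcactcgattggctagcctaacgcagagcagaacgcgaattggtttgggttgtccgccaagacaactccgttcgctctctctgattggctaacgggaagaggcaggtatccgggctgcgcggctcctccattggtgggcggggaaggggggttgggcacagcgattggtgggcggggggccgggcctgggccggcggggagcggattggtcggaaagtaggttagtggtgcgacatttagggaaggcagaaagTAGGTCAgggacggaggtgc
Nr1d1: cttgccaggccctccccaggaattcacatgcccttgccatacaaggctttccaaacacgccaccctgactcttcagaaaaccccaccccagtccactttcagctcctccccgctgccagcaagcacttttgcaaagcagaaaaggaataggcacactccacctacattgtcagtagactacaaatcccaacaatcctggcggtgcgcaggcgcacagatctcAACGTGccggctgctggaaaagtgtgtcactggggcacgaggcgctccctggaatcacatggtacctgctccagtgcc
Per1: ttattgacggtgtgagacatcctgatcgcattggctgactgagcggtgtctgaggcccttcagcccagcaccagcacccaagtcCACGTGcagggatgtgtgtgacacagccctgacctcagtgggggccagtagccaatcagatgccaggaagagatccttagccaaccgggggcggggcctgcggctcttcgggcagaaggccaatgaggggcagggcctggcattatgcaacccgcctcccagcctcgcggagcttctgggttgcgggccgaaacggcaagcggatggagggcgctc
Per3: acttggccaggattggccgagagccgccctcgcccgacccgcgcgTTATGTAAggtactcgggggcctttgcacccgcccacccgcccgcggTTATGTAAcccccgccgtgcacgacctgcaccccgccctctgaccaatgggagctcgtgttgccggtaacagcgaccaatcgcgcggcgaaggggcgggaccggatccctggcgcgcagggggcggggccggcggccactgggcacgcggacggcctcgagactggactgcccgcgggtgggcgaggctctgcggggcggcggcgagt
The ROR element of Arntl lies 30 bases after the start site, the AACGTG of Nr1d1 28 bases before it, and the D-boxes of Per3 205 and 158 bases before it. Cry1 held an E-box and AACGTG, Cry2 held AACGTG, and the windows of Clock, Npas2 and Nr1d2 held none of the letters searched. A match describes the window and is not a measured site.

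Library totals ran from 7670532 to 27036098 counts, with a median of 13464321. After a filter on low counts, 12391 genes (pancreas) to 15225 genes (epididymal fat) were tested per organ, and the 10 clock genes gave 129 of 130 possible tests. Only Npas2 in liver did not pass. Levels below are CPM, read counts scaled to the size of the library, after TMM scaling within the organ, tests are edgeR quasi-likelihood F tests, and a gene was called at a Benjamini-Hochberg adjusted p under 0.05 over all genes of the organ. By the median over libraries, the summed markers of each labelled organ were highest in that organ, white fat markers in both white fat depots. In some libraries markers of other organs were also high: the summed genes reached 21741 CPM for skeletal muscle, 3463 for pancreas and 1454 for liver in epididymal fat, 6445 for skeletal muscle in brown fat, and 20.4 to 11351 for pancreas in small intestine. The median was 4100 CPM for skeletal muscle genes in inguinal fat. In small intestine the summed liver markers Alb and Apoa1 were high in every library, at 5300 to 9857 CPM with a median of 7025. That sum cannot tell liver tissue from expression by the intestine itself. The part of all these markers in the clock gene values was not tested. In 1 library the organ's own markers were nearly absent: in the olfactory bulb library of 4 weeks numbered 6, the bulb genes Eomes and Doc2g summed to 2.23 CPM, against at least 246.7 in the other bulb libraries. Without it, 9 clock genes of the olfactory bulb were still called for any time difference, and 6 rather than 5 at 12 weeks against 0 days (Clock in addition). At 4 weeks against the other time points Npas2 was then called and Per3 no longer was. The strand setting of the counting is not given in the sources used here. Nr1d1 shares 263 exon bases with Thra on the opposite strand, so reads of the pair may be mixed.

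With scaling within each organ, the organs differed widely in their level of each clock gene. With common factors over all libraries, the differences between the highest and lowest organs were mostly smaller, as given in the last paragraph. Arntl had a median over time points of 43.5 CPM in neocortex, 35.5 in hippocampus, 34.0 in olfactory bulb, 29.1 in pituitary and 28.6 in hypothalamus. It lay at 24.3 CPM in soleus, 10.6 to 14.4 in the fat depots, gastrocnemius and small intestine, 4.52 in pancreas and 2.74 in liver. Npas2 followed a steeper order. It reached 60.3 CPM in neocortex, 24.5 to 29.9 in the other brain regions and 19.3 in small intestine, but 4.50 in pituitary, 0.71 in gastrocnemius, 0.60 in pancreas and 0.22 in liver. Small intestine was thus the 1 organ outside the brain with Npas2 above 4.50 CPM.

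The repressors had other orders. Per1 was highest in olfactory bulb (186 CPM) and neocortex (144 CPM) and lowest in pancreas (32.5 CPM). Per2 ran from 65.3 CPM in neocortex to 7.62 in soleus, with liver at 48.9 and small intestine at 53.6 beside the brain regions. Per3 stood at 145 CPM in pituitary, and its next organ was neocortex at 65.0 CPM. Cry1 was lowest in pancreas (3.42 CPM) and highest in olfactory bulb and pituitary (31.7 and 31.2 CPM). Cry2 lay between 123 and 158 CPM in the 4 brain regions and between 11.8 and 90.2 CPM elsewhere. Nr1d1 was highest in hippocampus at 269 CPM, 121 to 135 CPM in fat, muscle, pituitary and small intestine, and lower in liver (50.3 CPM) and pancreas (27.2 CPM). Nr1d2 was highest in pituitary at 192 CPM.

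Per kilobase of exon, Nr1d1 had the highest level of the 10 genes in 12 of 13 organs, from 8.83 CPM per kilobase in pancreas to 87.4 in hippocampus. In liver Nr1d2 was above it, at 22.4 against 16.3 CPM per kilobase. Neighbours in the order of organs mostly overlapped in the range of their time point means: 12 of 12 neighbouring pairs for Arntl, Per1 and Per2, and 8 of 12 for Nr1d1. The order also depends on the scaling. With 1 set of TMM factors over all libraries, the highest organ became soleus for Arntl, small intestine for Clock, liver for Per2 and gastrocnemius for Nr1d2. The lowest organ, in place of pancreas, became soleus for Clock and Per3, small intestine for Per1 and Cry2, epididymal fat for Cry1 and Nr1d2, and liver for Nr1d1. The rank correlation of the 13 organs between both scalings was 0.42 for Nr1d2, 0.43 for Per1 and 0.92 for Npas2. Npas2 kept neocortex as highest and liver as lowest.

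**Figure D1:**
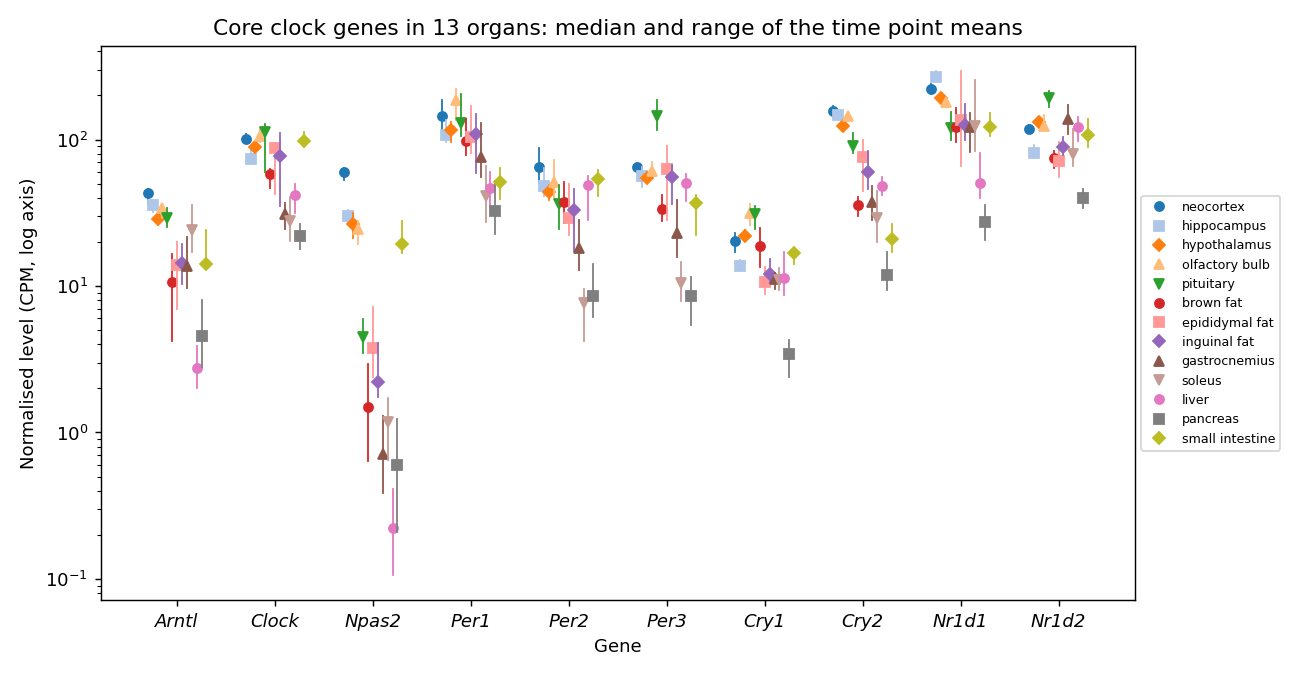
Level of each clock gene in 13 organs in CPM on a log axis, as the median (symbol) and the range (line) of the time point means, each the mean of 6 libraries. Npas2 spans the widest range, from 0.22 CPM in liver to 60.3 in neocortex.

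Within a time point 5 clock genes (Arntl, Npas2, Nr1d1, Per1 and Per2) varied with the replicate number of the library in about the same direction across organs. Libraries numbered 1 had high Arntl, Npas2 and Nr1d1 and low Per1 and Per2, and those numbered 5 and 6 mostly had the reverse. In a fit with the number as a term beside the time point, 50 of 129 gene and organ tests were called for the number (38.8%), against 7.03% of all gene and organ tests. Per1, a period gene of the repressing arm, was called in 11 of 13 organs, Per2 in 10, Arntl in 7, Npas2 in 6 of 12, Nr1d1 in 6 and Per3 in 4. Cry1, Cry2 and Nr1d2 were each called in 2 organs and Clock in none at adjusted p under 0.05 with edgeR. This term was examined after its effect had been noticed. The labels do not say what the number stands for, and whether it follows the order or hour of dissection was not tested.

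Pancreas and small intestine each had 8 of 10 clock genes called for the number, where 5.48% and 7.39% of all tested genes were. In pancreas the 14 libraries numbered 1, one per time point, held Arntl at 3.40 to 10.7 CPM with a median of 7.09, and the 14 numbered 6 at 0.91 to 5.43 CPM with a median of 2.69. Every library numbered 1 lay above its time point's mean log2 level and every library numbered 6 below it. The mean deviations were 0.79 ± 0.37 and -0.71 ± 0.48 log2 (SD, n = 14 each), and the adjusted p of the edgeR term was 4.58e-09. Per1 in pancreas had the opposite order: number 1 ran from 8.40 to 38.2 CPM with a median of 17.5, and number 6 from 18.6 to 62.7 CPM with a median of 42.2. The edgeR term for Per1 had an adjusted p of 1.01e-09.

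In small intestine Per1 was below the time point mean in 14 of 14 libraries numbered 1 and above it in 14 of 14 numbered 6. Their medians were 31.0 and 70.1 CPM (ranges 15.8 to 48.6 and 45.2 to 76.7 CPM), which overlap only between 45.2 and 48.6 CPM. The edgeR term had an adjusted p of 5.48e-13. In brown fat Arntl had a median of 18.1 CPM in libraries numbered 1, 12.9 in those numbered 2 and 6.69 to 7.30 in those numbered 4, 5 and 6. The mean deviation of number 1 was 0.77 ± 0.44 log2 (SD, n = 14; edgeR adjusted p = 4.31e-10). Brown fat had 5 clock genes called for the number against a background of 2.64%.

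Liver had 5 of 9 tested clock genes called for the number, in an organ where 19.4% of all genes were. Nr1d1 in liver was above the time point mean in 14 of 14 libraries numbered 1 (median 73.1 CPM) and below it in 13 of 14 numbered 6 (median 38.9 CPM), with an edgeR adjusted p of 1.49e-09. In gastrocnemius 25.7% of all genes were called for the number, and 2 of 10 clock genes, a smaller share. Nr1d1 was one of these 2: number 1 lay above and number 6 below the mean in 14 of 14 libraries each. The brain regions showed the term in the Per genes at a smaller size. In neocortex the mean deviation of Per2 was -0.17 ± 0.21 log2 in libraries numbered 1 and 0.08 ± 0.15 in those numbered 6 (SD, n = 14; edgeR adjusted p = 0.00436). Hippocampus had 2 genes called (background 3.41%), hypothalamus 3 (2.54%), neocortex 3 (5.49%), olfactory bulb 3 (3.68%), inguinal fat 3 (1.5%), epididymal fat 4 (2.83%) and pituitary 4 (13.4%). In soleus no clock gene was called with edgeR or DESeq2, 1 had an unadjusted p under 0.05, and 0.397% of all genes were called.

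Across the 13 organs the number 1 libraries were on average above the number 6 libraries in 12 for Arntl and Nr1d1, and below them in 12 for Per1 and in 13 for Per2. The total of 50 rested partly on number 1: without those libraries 30 tests were called, without number 6 39, and without 0 days and 12 weeks 42. Without number 1 the count fell to 1 in liver, 1 in hypothalamus, 0 in hippocampus, 3 in brown fat and 5 in pancreas. Without number 6 it fell to 4 in pancreas, 2 in epididymal fat and 0 in gastrocnemius. Without 0 days and 12 weeks it fell to 1 in hippocampus.

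**Figure D2:**
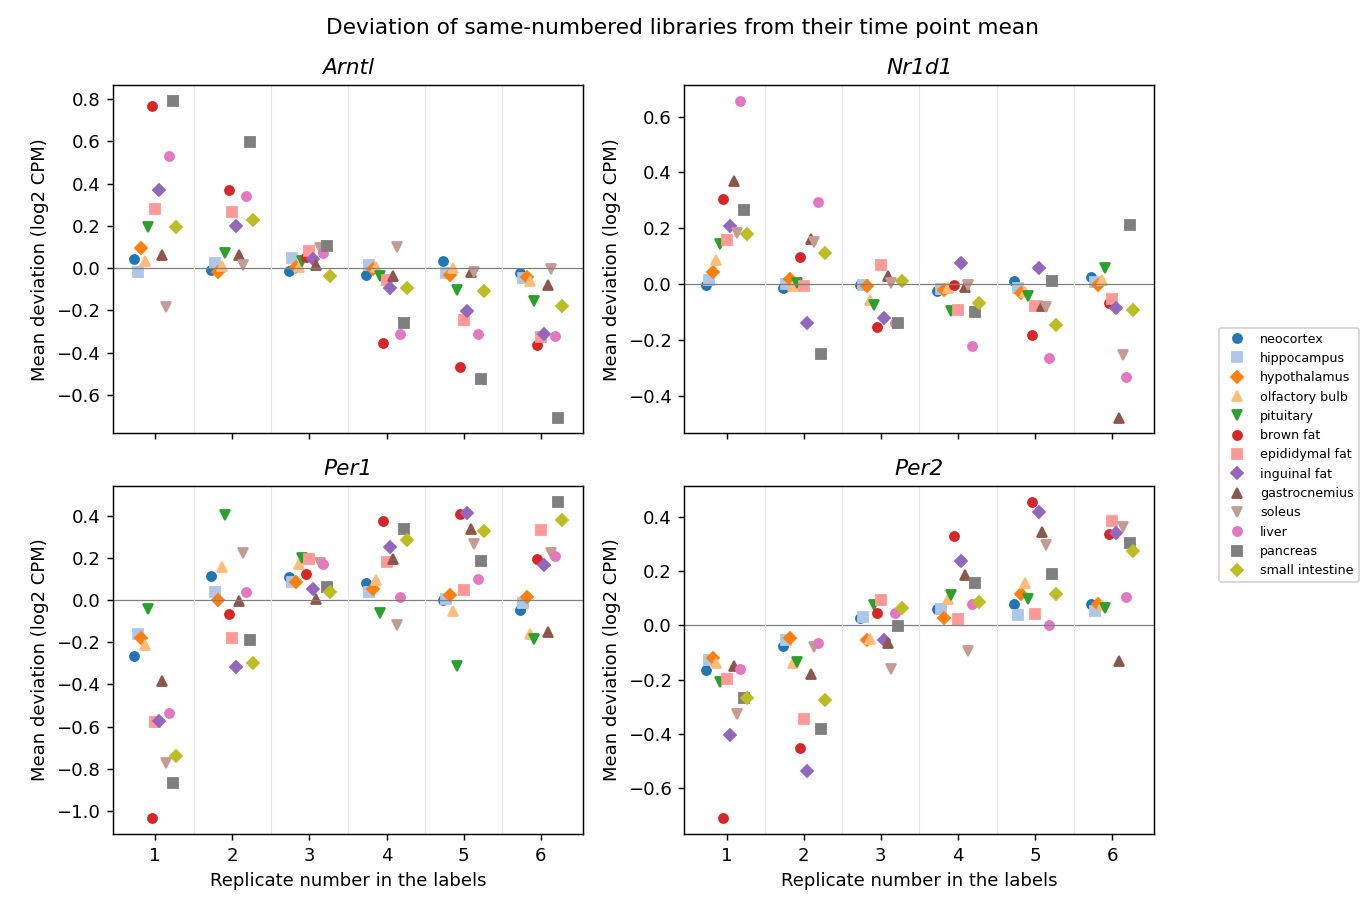
Mean deviation (log2 CPM) of the libraries with each replicate number from their time point mean, for 4 clock genes, with 1 symbol per organ and 14 libraries per symbol (16 in epididymal fat). Pancreas Arntl stands at 0.79 for number 1 and -0.71 for number 6, and Per1 is lowest at number 1 in 12 of 13 organs.

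Same-numbered libraries of different organs also deviated together. After each library was expressed as a deviation from its time point mean, Arntl in liver was compared with Arntl in the 12 other organs, and likewise Nr1d1, over 84 libraries each (24 relations, 100000 permutations within time points, two-sided, Benjamini-Hochberg over the 24). Arntl was called in 7 organs, all positive. The strongest was small intestine (Pearson r = 0.62, permutation p = 1e-05, the smallest these permutations can give, adjusted p = 3.43e-05; Spearman rho = 0.60, p = 1e-05), and r was 0.62 without the 2 libraries farthest from the liver median. Nr1d1 was called in 8 organs, all positive, led by gastrocnemius (r = 0.64, permutation p = 1e-05, adjusted p = 3.43e-05; rho = 0.64, p = 1e-05; r = 0.62 without the 2 farthest). Without those libraries 7 organs were called for each gene. The permutations exchange numbers within a time point, so the number effect described above can by itself give such calls. The share of all genes with such relations was not measured. Liver Arntl showed little relation with hippocampus (r = 0.06, adjusted p = 0.623 by permutation) or soleus (r = -0.08, adjusted p = 0.544).

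The relation was weaker after the number term was taken out. Once the mean of each number was also removed, the median r over the 12 organs went from 0.43 to 0.15 for Arntl and from 0.33 to 0.10 for Nr1d1. Small intestine Arntl was then at 0.48 and gastrocnemius Nr1d1 at 0.41, and these values were not tested. Over all 78 organ pairs the median r was highest for Per1 (0.45, and 0.35 with the number removed) and Per2 (0.44, and 0.31). It was 0.24 for Arntl, 0.21 for Nr1d1 and Nr1d2, and 0.05 for Clock. These are descriptions over libraries that may come from the same mice. The labels do not say whether a number marks the same mouse in each organ.

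Time on the diet was tested next. An F test for any difference between time points called 89 of 129 clock gene tests (69.0%), against 49% of all gene tests. Of all the genes tested the share was 90.7% in epididymal fat, where all 10 clock genes were called, 34.8% in neocortex (9 clock genes), 41.8% in olfactory bulb (9), 39.5% in hippocampus (8), 31.1% in hypothalamus (8), 69.2% in pituitary (8) and 68.6% in small intestine (8). Liver had 6 of 9 called (57.5%), inguinal fat 6 (65%), gastrocnemius 6 (37.1%), brown fat 5 (65.7%), pancreas 3 (20.6%) and soleus 3 (6.75%). With the replicate number as a block, brown fat had 9 called and pancreas 7. Clock and Cry2 were called in 11 organs each, Nr1d1 in 10, Arntl, Cry1 and Per2 in 9, and Npas2 in 6 of 12.

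Each time point was then set against the mean of the others in its organ. Calls gathered at both ends of the series, for the clock genes and for all genes. At 0 days 50 of 129 tests were called (30 higher and 20 lower, 38.8%; 24% of all gene tests, 12.1% higher and 11.9% lower), and at 12 weeks 36 (26 higher and 10 lower, 27.9%; 18.3% of all, 9.69% higher and 8.64% lower). At 1 day there were 24 calls (background 17.6%), at 3 days 16 (9.59%), at 1 week 15 (6.82%), at 10 days 7 (5.66%), at 2 weeks 15 (11.8%), at 3 weeks 3 (6.69%) and at 4 weeks 13 (5.97%). At 5, 6, 7, 8 and 10 weeks there were 3, 4, 7, 14 and 13 calls (2.16%, 2.1%, 5.35%, 8.76% and 7.04%). The clock gene share was close to that of all genes at 1 day, 10 days, 2 weeks, 5 weeks and 7 weeks. It was below that share at 3 weeks. As a ratio to the share of all genes, the ends stood no higher than 1 week or 4 weeks. The median absolute difference of the clock genes was 0.23 log2 at 0 days and 0.18 at 12 weeks, against 0.13 and 0.11 for all genes. The organs may come from the same mice, so the counts of organs below are not independent. On its most one-sided day each clock gene had from 10 organs (Clock) to 13 (Arntl, Cry1 and Per2) on the same side. The share of such days among all genes was not measured.

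Arntl, the positive arm's partner of Clock, was lower at 0 days than over the other time points in 13 of 13 organs. It was called in 7 organs: brown, epididymal and inguinal fat, gastrocnemius, neocortex, olfactory bulb and pituitary. Pituitary Arntl was not called by the test for any difference between time points. The median difference over organs was -0.46 log2, with a range from -1.37 in brown fat to -0.13. In brown fat the 6 libraries of 0 days held 2.89, 4.01, 4.14, 4.42, 4.79 and 5.05 CPM. At 1 week they held 7.83 to 21.9 CPM with a median of 17.7, so the groups did not overlap. By their means these were the lowest and the highest time point of Arntl in brown fat. Groups picked in this way from the same values tend not to overlap, and the share among all genes was not measured. At 1 week Arntl was not called against the other days in any organ. The difference of 0 days from the others was -1.37 ± 0.31 log2 (SE; edgeR adjusted p = 4.00e-04). The libraries numbered 1 and 2, which were high in brown fat on most days, held 4.42 and 5.05 CPM at 0 days.

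In gastrocnemius Arntl ran from 7.71 to 10.8 CPM at 0 days with a median of 10.3. The 6 libraries of 4 weeks ran from 17.2 to 26.0 CPM, median 21.8, above every library of 0 days. These were again the lowest and the highest time point by mean. The 0 day difference was -0.59 ± 0.10 log2 (SE; edgeR adjusted p = 2.5e-05). In neocortex the difference was smaller: the 0 day libraries ran from 32.4 to 42.0 CPM (median 36.0), and 57 of the 78 libraries of other days lay above the highest of these (-0.25 ± 0.04 log2, edgeR adjusted p = 1.1e-07).

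At 4 weeks Arntl and Npas2 lay above the other days in nearly all organs. Arntl was above the other days in 11 of 13 organs, with a median difference of 0.48 log2, and Npas2 in 12 of 12 (median 0.42). For each gene 2 organs were called higher, on a day when 3.42% of all gene tests were. In small intestine Arntl ran from 17.0 to 33.6 CPM at 4 weeks with a median of 22.0, and 62 of the 78 other libraries were below the lowest of these. The difference was 0.73 ± 0.12 log2 (SE; edgeR adjusted p = 2.0e-06), and that of Npas2 0.52 ± 0.11 (20.6 to 36.9 CPM, median 27.8; adjusted p = 1.3e-04). In the same 6 libraries Per3 was low, at 13.8 to 28.5 CPM with a median of 22.8, below 63 of 78 other libraries at its highest (-0.72 ± 0.14 log2, edgeR adjusted p = 5.2e-05). Per2, Nr1d2 and Cry2 were also called lower there, at -0.41, -0.30 and -0.34 log2. Small intestine Per2 was not called by the test for any difference between time points. Gastrocnemius Arntl was 0.66 ± 0.09 log2 higher at 4 weeks (edgeR adjusted p = 2.8e-06). Cry1 was above the other days at 4 weeks in 13 of 13 organs, with a median of 0.09 log2 and 1 call.

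Per2 was lower at 3 days in 13 of 13 organs and higher at 12 weeks in 12 of 13. At 3 days it was called lower in 5 (hippocampus, hypothalamus, neocortex, olfactory bulb and pituitary), on a day when 4.39% of all gene tests were. At 12 weeks it was called in 7 (hippocampus, neocortex, olfactory bulb, pituitary, liver, pancreas and inguinal fat), with a median over organs of 0.44 log2. In pancreas the test for any difference between time points did not call Per2. In neocortex Per2 held 41.8, 43.4, 47.3, 52.5, 58.7 and 60.3 CPM at 3 days and 79.7, 83.6, 88.5, 89.3, 89.7 and 94.9 CPM at 12 weeks. The groups did not overlap, and at 12 weeks 73 of 78 other libraries lay below the lowest. These days were the lowest and the highest of neocortex Per2, picked by their means. The differences from the other days were -0.36 ± 0.08 and 0.49 ± 0.07 log2 (SE; edgeR adjusted p = 7.6e-04 and 6.3e-08).

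In hippocampus Per2 ran from 38.0 to 44.9 CPM at 3 days (median 41.4) and from 55.5 to 70.2 CPM at 12 weeks (median 64.2), again without overlap. Pituitary Per2 ran from 18.0 to 32.5 CPM at 3 days (median 24.1) and from 35.3 to 72.0 CPM at 12 weeks (median 46.9). The lowest group of pituitary thus lay wholly below the highest. The 3 day differences were -0.24 and -0.59 log2, and those of 12 weeks 0.44 and 0.48, each called.

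Per1 was also high at 12 weeks. It was above the other days in 12 of 13 organs with a median of 0.41 log2 and was called higher in 6: the 4 brain regions, liver and pancreas. In liver and pancreas the test for any difference between time points did not call Per1. Neocortex Per1 ran from 169 to 211 CPM at 12 weeks (median 181) and from 96.5 to 142 CPM at 1 week (median 113), with no overlap. These days too were the highest and the lowest by mean. The differences were 0.41 ± 0.08 and -0.33 ± 0.08 log2 (SE; edgeR adjusted p = 4.4e-05 and 0.011). In pancreas Per1 ran from 38.2 to 65.7 CPM at 12 weeks (median 53.3), above the median of the other days of 30.4 CPM in every library (0.76 ± 0.21 log2, edgeR adjusted p = 0.023). Within time points Per1 and Per2 also moved together, with a median r of 0.63 over the 13 organs and a positive value in 13.

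**Figure D3:**
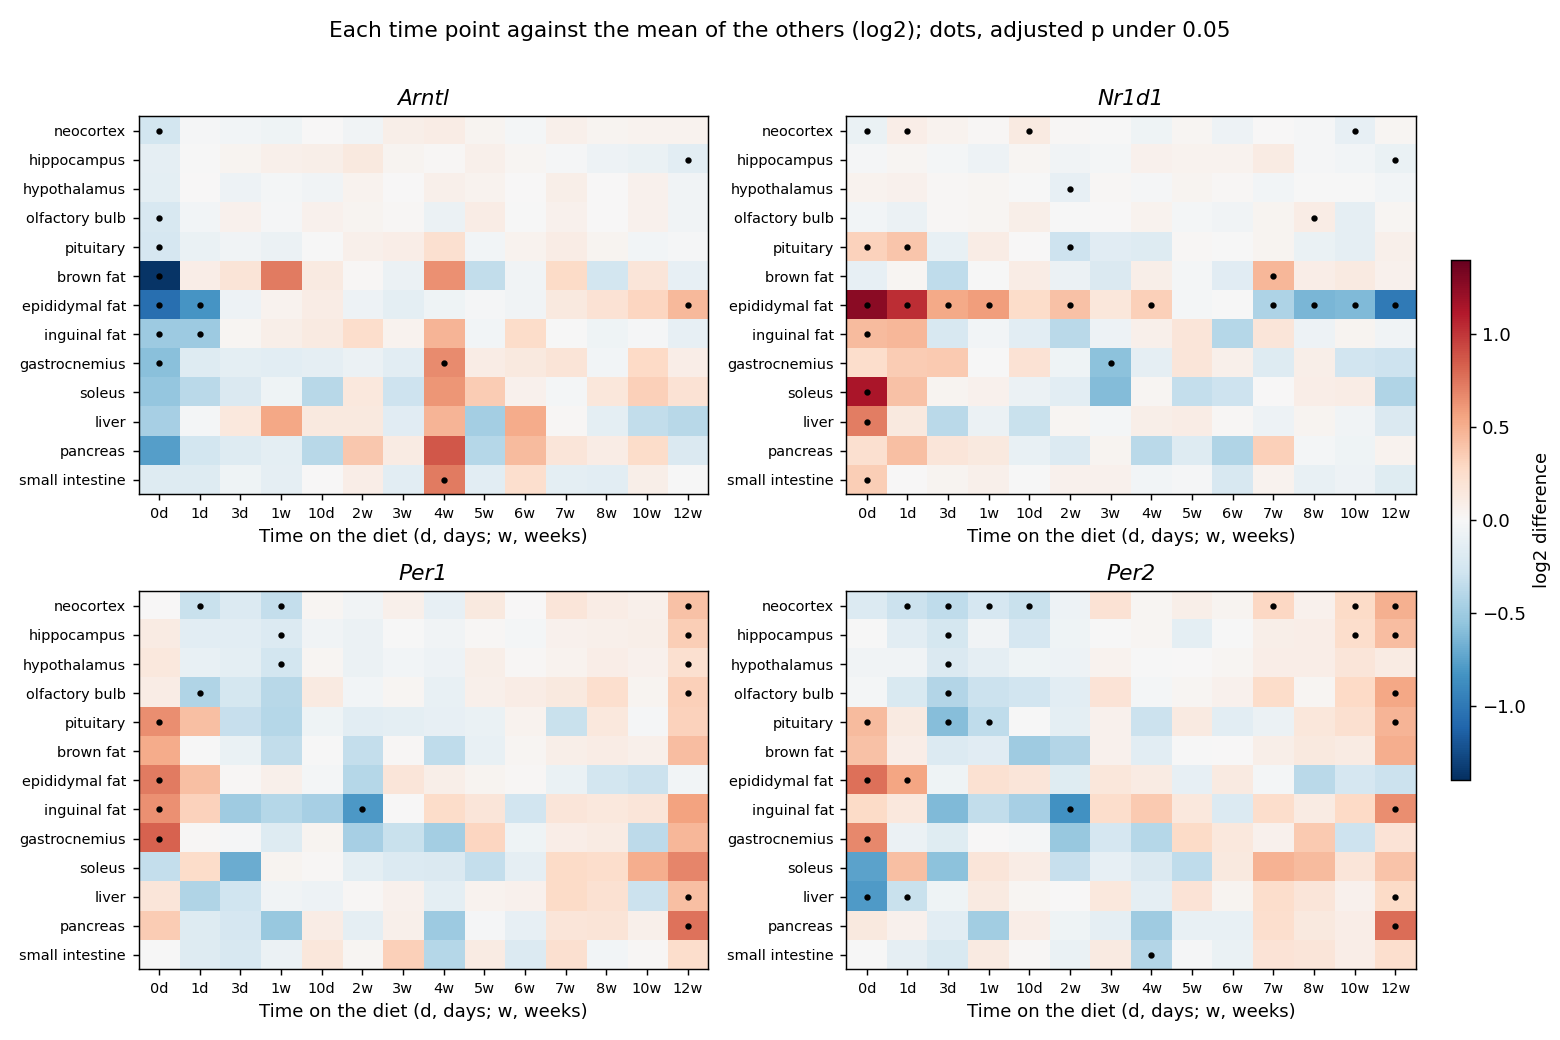
Difference of each time point from the mean of the others (log2, colour) for 4 clock genes in 13 organs, with a dot where the edgeR adjusted p was under 0.05. The 0 days column of Arntl is negative in 13 of 13 organs and the 3 days column of Per2 likewise, while the 12 weeks columns of Per1 and Per2 are positive in 12 of 13.

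**Figure D4:**
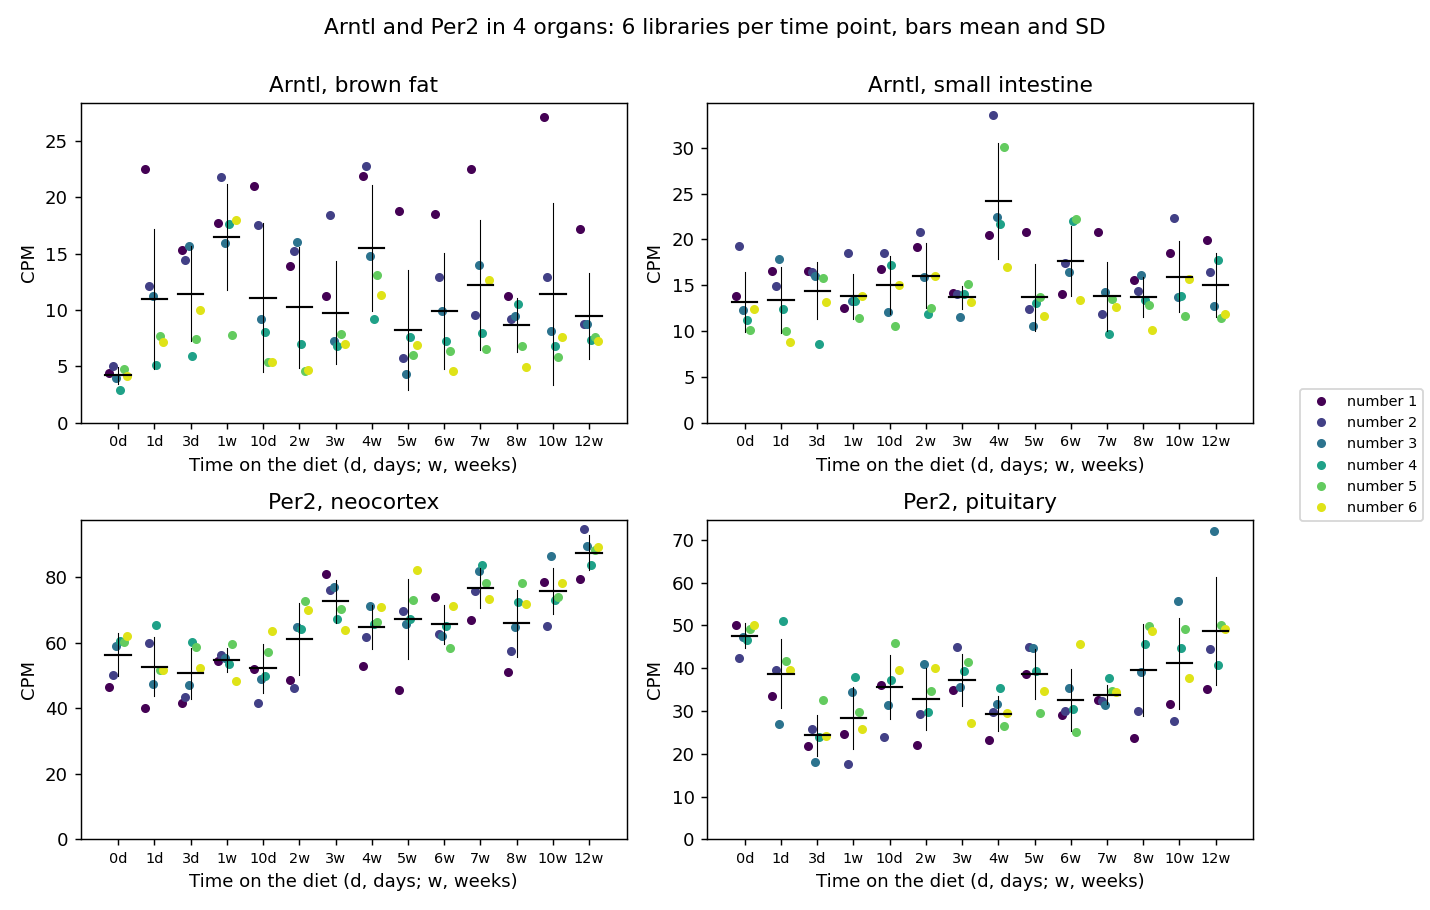
CPM of Arntl in brown fat and small intestine and of Per2 in neocortex and pituitary in every library, coloured by replicate number, with the mean and SD of each time point over 6 libraries. Brown fat Arntl lies between 2.89 and 5.05 CPM at 0 days, and neocortex Per2 between 79.7 and 94.9 CPM at 12 weeks.

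Other gene lists also had calls on these days, and their part in the clock gene differences was not tested. Of all gene tests, 24% were called at 0 days, 18.3% at 12 weeks and 5.97% at 4 weeks. The remaining days of the lists are not given here. At 12 weeks the immediate early genes, which respond within minutes to stimulation, were higher in 55 and lower in 2 of 152 tests (37.5%), with a median of 0.50 log2. Glucocorticoid-responsive genes, a list that follows the stress hormone, were higher in 38 and lower in 7 of 130 tests at 12 weeks (34.6%) and higher in 38 and lower in 3 at 0 days (31.5%). Temperature-responsive genes were higher in 22 and lower in 61 of 155 tests at 0 days (53.5%), and higher in 27 and lower in 2 at 4 weeks (18.7%). That list pools Cirbp and Rbm3 with genes of heat shock proteins, and these counts do not separate them. Feeding and fasting genes were higher in 23 and lower in 25 of 136 tests at 0 days (35.3%) and higher in 24 and lower in 14 at 12 weeks (27.9%). The other clock genes, 18 outputs and modifiers of the loop, were higher in 56 and lower in 25 of 225 tests at 0 days (36%) and higher in 43 and lower in 21 at 12 weeks (28.4%). Per1 itself responds to glucocorticoids as well as to the clock.

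The genes with the most calls over single days were Noct (43), the clock output Dbp (40) and Bhlhe40 (33) among the other clock genes. Hspa8 (55), Hsph1 (40) and Cirbp (39) led the temperature list, Mt1 (33), Cdkn1a (30) and Mt2 (24) the glucocorticoid list, Atf3 (31), Fosb (30) and Egr2 (22) the immediate early list. In the feeding and fasting list Cpt1a had 34 calls, and Pck1 and Pnpla3 had 28 each. These compare with 39 for Clock, 28 for Nr1d1, 27 for Per2 and 27 for Per3.

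Clock, the partner of Arntl, had the most calls of the 10 genes over single time points, and organs differed in the direction of its calls. At 0 days it was lower in 4 organs (brown, epididymal and inguinal fat and pituitary) and higher in 3 (liver, olfactory bulb and small intestine). Pituitary Clock held 52.9 to 66.6 CPM at 0 days (median 63.4) and 51.9 to 66.6 CPM at 1 day (median 61.6), and then 108 to 132 CPM at 3 days (median 120). Both early groups lay wholly below that of 3 days. Their differences from the other days were -0.81 ± 0.05 and -0.86 ± 0.05 log2 (SE; edgeR adjusted p = 7.3e-23 and 2.7e-24). The summed pituitary hormone genes Gh, Prl and Pomc ran from 182006 to 217901 CPM at 0 days and from 189900 to 229587 CPM at 3 days. The part of cell composition in the pituitary Clock difference was not tested.

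In inguinal fat Clock ran from 29.7 to 38.7 CPM at 0 days (median 35.6) and from 99.6 to 128 CPM at 12 weeks (median 108), with no overlap. The difference between them was 1.66 ± 0.18 log2 (SE; edgeR adjusted p = 1.68e-11). Genes of skeletal muscle (Acta1, Ckm and Myh4) summed to 3.45 to 22461 CPM at 0 days and 4813 to 22632 CPM at 12 weeks in the same depot. The part of muscle in the Clock difference was not tested.

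Week 12 was finally compared with 0 days in each organ. Of 129 tests, 47 were called (36.4%), 27 higher and 20 lower at 12 weeks, against 27.7% of all gene tests. Epididymal fat had 10 of 10 called (background 60.4%), neocortex 7 (25%), olfactory bulb and small intestine 5 each (20.8% and 38.9%), hippocampus and liver 4 each (25.6% and 42%), inguinal fat and pituitary 3 each (44.6% and 45.6%), and brown fat, gastrocnemius and soleus 2 each (27.6%, 5.94% and 3.88%). Hypothalamus and pancreas had none with edgeR or DESeq2, where 6.8% and 5.9% of all genes were called, and 2 clock genes in each had an unadjusted p under 0.05. With the replicate number as a block hypothalamus had 1. Arntl was above 0 in 12 of 13 organs and called in 4, whereas Nr1d1 was above 0 in 3 and called lower in 4 and higher in 1.

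In neocortex the 7 called genes (Arntl, Npas2, Cry1, Cry2, Nr1d1, Per1 and Per2) were all higher at 12 weeks. In liver Per2 was higher, at 22.5 to 31.9 CPM at 0 days (median 29.4) and 46.5 to 65.1 CPM at 12 weeks (median 56.0), a difference of 0.99 ± 0.14 log2 (SE; edgeR adjusted p = 9.41e-09). Nr1d2 in liver was lower, at 132 to 153 CPM against 92.8 to 103 CPM (medians 142 and 97.9). Neither pair of groups overlapped. Liver Clock and Nr1d1 were also called lower, at -0.59 and -0.85 log2. Nr1d1 ran from 58.1 to 122 CPM at 0 days (median 75.0) and from 26.8 to 88.0 CPM at 12 weeks (median 38.4), with overlap. The test for any difference between time points did not call liver Nr1d1.

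Soleus Nr1d1 ran from 173 to 321 CPM at 0 days (median 267) and from 74.4 to 125 CPM at 12 weeks (median 89.9), with no overlap (-1.46 ± 0.22 log2, edgeR adjusted p = 5.33e-06). Cry1, a repressor of the loop, was called higher in 4 organs and lower in 2. In pituitary Cry1 ran from 21.1 to 29.3 CPM at 0 days (median 24.4) and from 28.6 to 35.6 CPM at 12 weeks (median 33.3), with a slight overlap (0.41 ± 0.09 log2, edgeR adjusted p = 1.58e-04). Cry2 in inguinal fat ran from 36.1 to 64.1 CPM at 0 days (median 51.7) and from 75.6 to 91.2 CPM at 12 weeks (median 84.2), with no overlap (0.69 ± 0.21 log2, edgeR adjusted p = 0.00510).

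Epididymal white adipose tissue, the visceral fat pad that inflames in obesity, was the organ with all 10 clock genes called between 0 days and 12 weeks. There Nr1d1 ran from 239 to 420 CPM at 0 days (median 260), from 56.1 to 74.8 CPM at 12 weeks (median 69.5) and from 55.2 to 81.4 CPM at 20 weeks (median 66.0). Between 0 days and 12 weeks it fell by 2.12 ± 0.17 on the log2 scale. The means of the time points between were 251 CPM at 1 day, 188 at 1 week, 159 at 4 weeks, 128 at 6 weeks and 84.5 at 8 weeks. Per3 was at 73.0 to 107 CPM at 0 days (median 86.3) and 17.4 to 35.0 CPM at 12 weeks (median 30.0), and Cry2 at 64.1 to 94.5 CPM (median 78.8) and 27.9 to 53.9 CPM (median 47.7). None of these groups overlapped with its partner.

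The activators of the loop went the other way there. Arntl was at 4.98 to 8.98 CPM at 0 days (median 6.92), 13.6 to 23.1 CPM at 12 weeks (median 18.2) and 16.9 to 22.7 CPM at 20 weeks (median 20.8), a difference of 1.42 ± 0.22 log2 between 0 days and 12 weeks. Clock, at 37.5 to 46.0 CPM at 0 days, lay below every one of the 90 libraries of other days. Its mean was 59.5 CPM at 1 day and 94.7 CPM at 3 days. Npas2 ran from 3.58 to 5.63 CPM at 0 days (median 4.10) and 3.90 to 9.96 CPM at 12 weeks (median 7.66), with overlap (0.76 ± 0.29 log2, edgeR adjusted p = 0.018). At 20 weeks 9 of 10 clock genes were called against 0 days (background 60.8%), 2 higher and 7 lower. Against the mean of the other time points, 5 of 10 were called at 16 weeks and 5 of 10 at 20 weeks (backgrounds 41.2% and 46.1%).

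Cell type markers moved with these values in epididymal fat, and their part was not tested. The genes Adgre1, Cd68 and Itgax of macrophages summed to 77.9 to 127 CPM at 0 days, 870 to 1905 CPM at 12 weeks and 998 to 1443 CPM at 20 weeks. The white fat genes Adipoq and Plin1 of adipocytes summed to 4323 to 6583 CPM at 0 days and 1490 to 2872 CPM at 12 weeks. At 3 days the mean of Clock was 94.7 CPM and the macrophage sum 93.7 to 140 CPM.

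**Figure D5:**
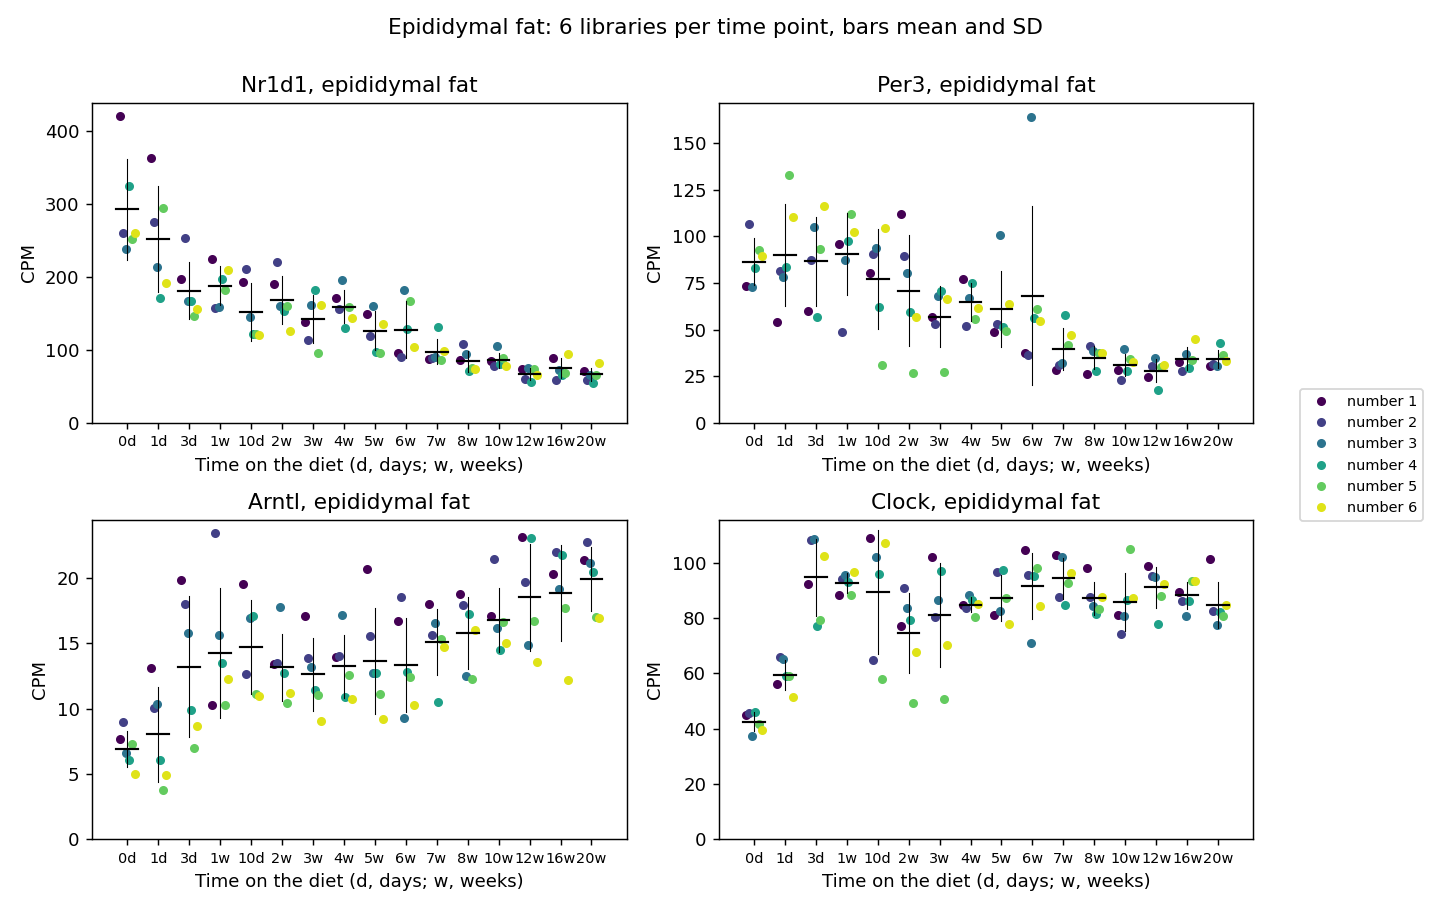
CPM of Nr1d1, Per3, Arntl and Clock in every epididymal fat library at 16 time points, coloured by replicate number, with the mean and SD over 6 libraries. Nr1d1 goes from a mean of 293 CPM at 0 days to 66.3 at 20 weeks, and Clock stands at 42.6 CPM at 0 days against 94.7 at 3 days.

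Whether the courses differed between organs was tested as an organ by time interaction in 3 pairs. Liver and epididymal fat differed for 9 of 10 clock genes, all but Npas2, where 69.2% of all genes did. Npas2 had 0.22 CPM in liver, below the filter there, so its interactions with liver rest on few counts. Liver and hypothalamus differed for 7 (46.9% of all genes), not for Nr1d1, Per1 or Npas2. Hippocampus and neocortex, adjacent parts of the forebrain, differed for 6 (25.4%): Arntl, Clock, Npas2, Per3, Cry2 and Nr1d1. Cry1, Nr1d2, Per1 and Per2 were not called there, with edgeR adjusted p of 0.238, 0.293, 0.831 and 0.105. When same-numbered libraries of both organs were compared as pairs, Arntl was no longer called between liver and hypothalamus (limma adjusted p = 0.21) and Per2 became called between hippocampus and neocortex (2.08e-04).

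The genes whose course over the 184 group means was most like that of Nr1d1, each centred within its organ, were Thra (Pearson r = 0.89), Tef (0.73), Pdk2 (0.70), Mta1 (0.70) and Nrbp2 (0.69), among 10825 genes. Thra is the gene that overlaps Nr1d1. For Arntl they were Hsp90aa1 (0.62), Tubgcp4 (0.58), P4ha1 (0.55) and Nars (0.54). Among the clock genes themselves Nr1d1 was most like Per3 (0.59) and most unlike Arntl (-0.50). The group means share libraries between genes, so these values are descriptions. The means were centred but not scaled, so organs with wide courses weigh most. For Nr1d1 the highest over the lowest time point mean was 4.41 in epididymal fat and 1.14 in hippocampus.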

How the data were processed

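Gene expression was measured by poly(A) RNA sequencing with a stranded kit, 6 libraries in each of 184 groups. The deposited table holds raw read counts per gene, one column per library. Per the submitters' processing notes, the authors aligned to build mm10 (GRCm38) with HISAT2 2.1.0 and counted with featureCounts 1.6.3. SAMtools 1.9, Trimmomatic 0.38 and FastQC 0.11.7 are also named there. For annotation and strandedness, the settings used in counting were not given. Groups came from the labels.

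The counts were analysed per organ in R 4.3.3 with edgeR 4.0.16 (filterByExpr, TMM factors, quasi-likelihood F test, 1 coefficient per time point) and Benjamini-Hochberg adjustment over all genes of the organ, with a threshold of 0.05. Contrasts were any difference between time points, each time point against the mean of the others, and 12 weeks against 0 days. Interactions between organs were tested in 3 pairs. DESeq2 1.42.0, RLE factors, no filter, the replicate number as a block, and leaving out, at each time point, the library least correlated with the rest were alternatives, and limma 3.58.1 was used on paired differences. Log2 CPM for relations used a prior count of 2, and permutations ran in scipy 1.17.1. Scripts were tested on simulated data.

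All 10 clock genes are named. From each other list the 3 genes with most calls are named, and for likeness the 5 genes with the highest r, and a few items that these rules or the marker lists name are not reported here. The clock genes and lists were chosen with earlier results of these data known, and the test of the replicate number was added after its effect was seen. No 2 libraries of a group agreed within counting noise. The labels do not say whether same-numbered libraries of different organs are from the same mouse, and p-values measure the spread between the libraries of a group.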

Additional observations from a re-analysis of the deposited data

Results flagged for a closer look

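In liver, Nr1d1 had 1 library far above the other 5 at both ends of the series. At 0 days library number 1 held 122 CPM and the next 81.1 CPM, a gap of 0.641 of the group's range. At 12 weeks library number 1 held 88.0 CPM and the next 47.4 CPM, a gap of 0.662. Both are libraries numbered 1, which had high liver Nr1d1 throughout the series, as described with the replicate number. Npas2 in epididymal fat at 0 days had a gap of 0.643, between 5.63 CPM in library number 3 and 4.31 CPM. These were the 3 of 48 groups examined that passed Dixon's 95% limit for 6 values, which chance passes in about 1 in 20 groups.

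The time course differed between organs, by an edgeR interaction test, for 9 of 10 clock genes between liver and epididymal fat (69.2% of all genes), for 7 between liver and hypothalamus (46.9%), and for 6 between hippocampus and neocortex (25.4%). With same-numbered libraries as pairs (limma) the counts were 9, 6 without Arntl, and 7 with Per2 in addition.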

How the results depend on the processing

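Of 277 called differences of a single clock gene in 1 organ, 238 kept their direction and side of the threshold in every alternative counted here. The call was lost in at least 1 alternative for 39, and none changed direction. Counted were DESeq2, RLE factors, no filter, the number as a block, and leaving out the least correlated libraries. For 12 weeks against 0 days the fit of the 12 libraries alone was also counted. The reference of 1 to 10 weeks and the run without the olfactory bulb library that lacks bulb markers were not. Counts of called genes moved by over 1.5 times as follows. With DESeq2 the any-time test in pancreas called 5 (not 3), 10 days 11 (not 7), 7 weeks 11 (not 7), and 12 weeks against 0 days in soleus 4 (not 2; also 4 with RLE factors). With a reference of 1 to 10 weeks, 6 weeks had 2 and 7 weeks 4 calls. When the library least correlated with the rest was left out at each time point, 10 days had 11, 3 weeks 5 (not 3) and brown fat at 12 weeks 1 (not 2). A fit of the 12 libraries alone gave 4 in brown fat and 4 in gastrocnemius (each 2 before).

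With the replicate number as a block, the any-time test called 9 in brown fat (not 5) and 7 in pancreas, 3 weeks had 6 calls and hypothalamus at 12 weeks 1 (not 0). In no organ did all 6 same-numbered pairs of 0 days and 12 weeks correlate above 0.1. That check cannot show whether these libraries share more than a number. In liver 5 of 6 correlated best with their own number, and in olfactory bulb 4 of 6. The number test called 30 to 39 of 129 when libraries numbered 1 or 6 were left out (liver 1 instead of 5 without number 1), and 50 without the olfactory bulb library that lacks bulb markers.

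With TMM factors over all libraries the log2 difference between the 2 organs that were highest and lowest before became 3.04 for Arntl (3.99 before), 0.12 for Clock (2.37), 0.28 for Per1 (2.51), 1.98 for Per2 (3.10), 1.80 for Per3 (4.07), 0.93 for Cry1 (3.21), 1.66 for Cry2 (3.73), 1.21 for Nr1d1 (3.31) and 0.0083 for Nr1d2 (2.27). The causes were not tested. Low counts limit Npas2 in liver, which did not pass the filter there, and Arntl in liver and pancreas.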
